A study of Mus musculus with 9 samples.

Results

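The genes described here are 10 genes of MHC class I antigen presentation and of the immunoproteasome, chosen by name: B2m, H2-K1, H2-D1, Tap1, Tap2, Tapbp, Psmb8, Psmb9, Psmb10 and Nlrc5. All 10 had a row among the 19517 genes of the authors' deposited table, and all 10 had a tested value in each of its 3 comparisons. The table comes from RNA-seq of mouse ovary in 9 libraries, 3 in each of 3 groups. All 3 groups were female BALB/c nude mice, which have no thymus and few mature T cells, and all carried tumors grown from MDA-MB-231, a line of human breast cancer cells. UT mice were untreated, CTX mice had cyclophosphamide, a chemotherapy drug that alkylates DNA, and CAU mice had caulerpin, an alkaloid of green algae. For the CAU group the labels give only caulerpin, and whether these mice had cyclophosphamide too is not said there. The sources used here give no age, dose or timing.

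MHC class I molecules display short peptides from proteins made inside the cell, so that CD8+ T cells and natural killer cells can inspect them. A class I molecule is a heavy chain, such as those of H2-K1 and H2-D1, bound to the light chain beta-2-microglobulin, the product of B2m. The peptides are cut by the proteasome. In cells exposed to interferon, and at steady state in many white blood cells, the subunits Psmb8, Psmb9 and Psmb10 take the place of the catalytic subunits Psmb5, Psmb6 and Psmb7 and form the immunoproteasome. The transporter made of Tap1 and Tap2 carries peptides into the endoplasmic reticulum, where tapasin, the product of Tapbp, helps to load them. Nlrc5 is the transactivator of class I genes, a relative of the class II transactivator Ciita. Nearly all nucleated cells make class I molecules, and white blood cells make more of them than most other cells of the ovary.

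For each comparison the authors' deposited table lists DESeq2's log2 fold change, p-value and adjusted p, with no value per library. The values of single ovaries, the overlap between groups and the sequencing depth are therefore unknown here. The error beside each log2 fold change is the standard error (SE) worked back from its p-value, and a gene is called changed at an adjusted p under 0.05. A column headed by a pair of groups was taken as the later-named group over the earlier one, which its header leaves unsaid. Under the opposite reading every sign below would turn. With the reading used, Cdkn1a, a target of p53 that DNA damage induces and a gene chosen after its values were seen, was at 1.99 (SE 0.32, adjusted p = 9.15e-07) in CTX against UT in the authors' deposited table. The labels number the libraries as replicates and name no separate mice. The p-values therefore measure only how these samples spread, and that spread may be partly technical. The ovary's own markers were measured, with 5 of 5 oocyte and 7 of 7 granulosa cell markers tested in all 3 comparisons, but their levels cannot be read from fold changes.

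By the RefSeq annotation of GRCm38.p6, 7 of the 10 genes lie in the MHC on chromosome 17. Tapbp (gene ID 21356) is at chr17:33919478-33929290 and H2-K1 (14972) at chr17:33996012-34000619. Psmb9 (16912) at chr17:34182030-34187330, Tap1 (21354) at chr17:34187556-34197225, Psmb8 (16913) at chr17:34198195-34201454 and Tap2 (21355) at chr17:34204479-34216321 sit side by side. H2-D1 (14964) lies at the far end, at chr17:35263094-35267497. B2m (12010) is at chr2:122147687-122153082, Nlrc5 (434341) at chr8:94434335-94527272 and Psmb10 (19171) at chr8:105935728-105938392.

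The promoters of B2m, H2-K1 and H2-D1 are shown because these were the 3 genes that passed the test. The stretches come from RefSeq promoters of GRCm38.p6 and are printed along the strand of the gene. They run from base -149 to -39 before the start of B2m, from -135 to -16 before the second RefSeq start of H2-K1 and from -181 to -62 before the start of H2-D1. The RefSeq span of H2-K1 begins further upstream and includes its stretch. In the GENCODE M21 annotation no exon overlapped the B2m and H2-K1 stretches, and an exon of a protein-coding H2-D1 transcript overlapped the H2-D1 stretch. Capitals mark matches to motifs of factors known to act on class I promoters.
B2m, chr2:122147538-122147648, plus strand: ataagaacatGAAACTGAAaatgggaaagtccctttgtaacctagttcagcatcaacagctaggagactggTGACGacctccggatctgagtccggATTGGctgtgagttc
H2-K1, chr17:34000349-34000468, minus strand: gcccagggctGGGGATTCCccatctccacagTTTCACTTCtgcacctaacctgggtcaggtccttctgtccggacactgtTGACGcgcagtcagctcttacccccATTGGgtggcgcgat
H2-D1, chr17:35262913-35263032, plus strand: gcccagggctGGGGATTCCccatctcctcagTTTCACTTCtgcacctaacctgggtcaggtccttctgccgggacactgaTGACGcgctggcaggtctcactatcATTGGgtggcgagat

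The H2-K1 and H2-D1 stretches had the same base at 108 of 120 positions, and the B2m stretch shares motifs with them in a different sequence. All 3 held TGACG, the core of the X2 box, followed after exactly 20 bases by ATTGG. The latter is a CCAAT box read from the other strand. The X box and the CCAAT (Y) box belong to the module on which RFX and NF-Y factors recruit Nlrc5. Ahead of this pair, H2-K1 and H2-D1 held GGGNNTTCC, a site for NF-kB factors, and GAANNGAAA, a site for interferon regulatory factors, here read from the other strand as TTTCACTTC. B2m held the related GAAANNGAA, also ahead of the pair.

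Both strands of the 250 bases before each of 32851 RefSeq starts were searched for the single motifs, and only the strand of the gene for the pair. GAAANNGAA was found in 7.13% of them, GAANNGAAA in 6.31%, GGGNNTTCC in 4.98%, TGACG in 17.8%, CCAAT in 33.8% and TTCNNNGAA, a STAT site, in 7.02%. ATTGG is CCAAT on the other strand, the interferon factor motifs GAAANNGAA and GAANNGAAA can overlap, and each motif was counted on its own. Along the strand of the gene, TGACG followed by ATTGG within 40 bases was in 0.475% of promoters. With exactly 20 bases between them the pair was in 0.0548%, or 18 promoters. The order, the spacing and GAANNGAAA were chosen after the members' sequences had been seen, so these shares describe the members and test nothing.

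Among genes with the exact spacing, 14 were tested in CTX against UT. B2m, H2-K1 and H2-D1 passed and the other 11 did not, with a median log2 fold change of -0.12 over the 14. H2-M3, a class I gene that presents formylated bacterial peptides, was at -0.13 (SE 0.16), and the clock gene Per1 at -0.61 (SE 0.22, adjusted p = 0.173) per the authors' deposited table, both named after their values were seen. Of the wider set of 121 tested genes with the pair within 40 bases, 4 fell and 1 rose, with a median of 0.02, beside the 1.29% called among all genes tested. The 4 that fell were B2m, H2-K1 and H2-D1, from whose sequences the spacing was taken, and the class II gene H2-Aa. A match to these letters is a description of the window and not a binding site.

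Psmb9 and Tap1 are transcribed in opposite directions from a shared stretch of 225 bases, which is printed because it is the promoter of both genes. On the plus strand of chromosome 17, from the Psmb9 side to the Tap1 side, it holds CCAAT at bases 4 to 8 and TGACG at bases 140 to 144, in capitals.
Psmb9 to Tap1, chr17:34187331-34187555: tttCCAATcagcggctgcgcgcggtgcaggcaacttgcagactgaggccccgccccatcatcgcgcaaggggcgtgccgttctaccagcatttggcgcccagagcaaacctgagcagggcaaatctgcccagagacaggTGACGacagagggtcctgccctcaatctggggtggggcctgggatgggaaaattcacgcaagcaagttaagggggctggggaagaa

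In GENCODE M21 this stretch also overlaps exons of transcripts of both genes, protein-coding ones among them. It held no such pair of motifs within 40 bases, and Psmb9 and Tap1 were not called in any comparison. RefSeq promoters were found for 8 of the 10 members, not for Tap2 and Nlrc5. In the other members, the Tapbp promoter held 2 CCAAT boxes, the Psmb8 promoter held TTCNNNGAA starting at base -97, and the Psmb10 promoter held none of the motifs.

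The comparison of CTX with UT asked what differed in the ovary after cyclophosphamide. All 10 genes had negative log2 fold changes, from -0.81 (H2-D1) to -0.14 (Tap2), with a median of -0.46. The 3 genes of the class I molecule itself, B2m, H2-K1 and H2-D1, fell, and the other 7 did not pass the threshold. Over all 19260 genes tested, 1.29% were called in either direction and 0.820% were called lower, the median log2 fold change was -0.03 and 55.8% were negative. At an unadjusted p under 0.05, 8 of the 10 genes were lower, against 5.79% of all genes. Over all genes 158 of the calls were lower and 91 higher. After centring all genes on their median that split became 134 lower and 156 higher, while the same 3 members were called lower.

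H2-K1, one of the classical heavy chains, had the smallest adjusted p of the 10. It fell by 0.66 on the log2 scale in the authors' deposited table (SE 0.08, 95% interval -0.81 to -0.50, adjusted p = 8.06e-13). Its level fell by 36.6%. H2-D1, also a classical heavy chain, fell by 0.81 (SE 0.14, interval -1.09 to -0.53, adjusted p = 1.31e-05) per the authors' deposited table, and its level fell by 42.9%. The light chain gene B2m fell by 0.61 (SE 0.12, interval -0.84 to -0.38, adjusted p = 7.37e-05) per the authors' deposited table, and its level fell by 34.5%. The intervals of the 3 genes overlap one another, and the chains that pair in 1 molecule were lower by 1.53 to 1.75 times.

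H2-K1 and H2-D1 have close relatives, and reads from shared sequence can be divided among them. In GENCODE M21 transcripts, 6.87% of the 50-base words of H2-K1 and 13.9% of those of H2-D1 also occur in other genes, and none of B2m. BALB/c mice carry other class I alleles than the C57BL/6 reference, so the values of the heavy chains are uncertain by an amount that was not tested.

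The transporter and loading genes were at smaller values and none passed. The authors' deposited table has Tap1 at -0.33 (SE 0.11, interval -0.54 to -0.11, adjusted p = 0.121) and Tap2, its partner, at -0.14 (SE 0.11, interval -0.37 to 0.08, adjusted p = 0.842). Tapbp was at -0.29 (SE 0.11, adjusted p = 0.193) per the authors' deposited table. The interval of Tap2 included 0, and those of Tap1 and Tapbp did not.

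The 3 immunoproteasome subunits were also negative without passing. Psmb9, the caspase-like site's replacement, was at -0.52 (SE 0.18, interval -0.87 to -0.16, adjusted p = 0.142) per the authors' deposited table. Psmb8, the chymotrypsin-like site's replacement, was at -0.41 (SE 0.13, interval -0.65 to -0.16, adjusted p = 0.0781), the lowest adjusted p of the 7 uncalled genes in the authors' deposited table. For Psmb10, the replacement at the trypsin-like site, the authors' deposited table gives -0.26 (SE 0.14, interval -0.53 to 0.02, adjusted p = 0.544). Their counterparts in the standard proteasome lay near 0. In the authors' deposited table Psmb5 was at 0.13 (SE 0.15), Psmb6 at -0.08 (SE 0.12) and Psmb7 at 0.14 (SE 0.10). The difference between each pair was not tested, since the table does not hold what its error needs.

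Nlrc5, the transactivator, was at -0.62 (SE 0.21, interval -1.04 to -0.20, adjusted p = 0.136) per the authors' deposited table. Its log2 fold change was as large as that of B2m, but its SE was the largest of the 10, so that the same size of difference passed for B2m and not for Nlrc5. The median SE of the 10 genes was 0.12, against 0.21 over all genes.

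**Figure D1:**
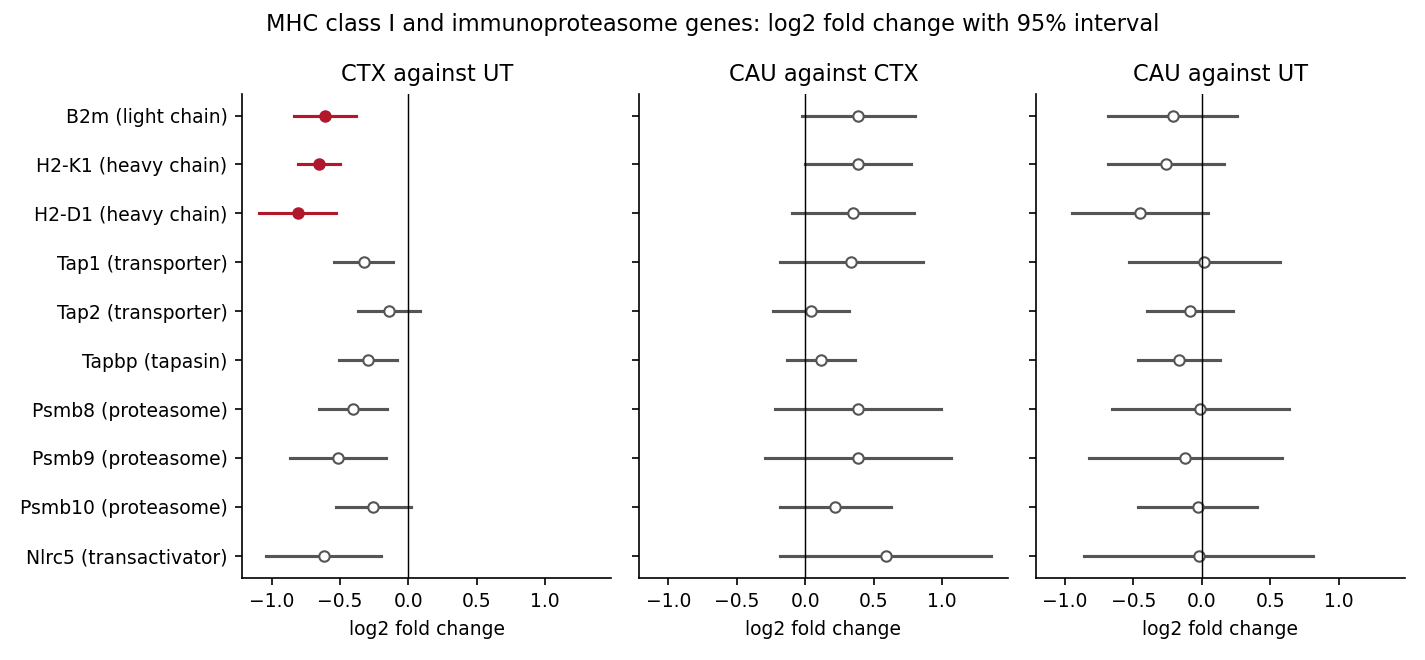
Log2 fold change (x axis) of each of the 10 genes (rows, by role) in the 3 comparisons, with 95% intervals from the implied standard errors; filled red points are called at an adjusted p under 0.05 and open points are not. B2m, H2-K1 and H2-D1 are called lower in CTX against UT, and no gene is called in the other comparisons.

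Other class I heavy chains had the same sign as the members. Of 19 listed, 18 were tested, all 18 were negative (median -0.45), 5 fell and none rose, beside the 1.29% of all genes that were called. H2-T23, the mouse Qa-1 molecule that natural killer cells read through CD94 receptors, fell by 0.71 (SE 0.13, adjusted p = 1.04e-05) per the authors' deposited table. H2-Q4 fell by 0.63 (SE 0.08, adjusted p = 4.42e-12), H2-Q2 by 1.03 (SE 0.29, adjusted p = 0.0336) and Fcgrt, the neonatal Fc receptor's heavy chain, by 0.37 (SE 0.10, adjusted p = 0.0292) per the authors' deposited table. The fifth gene called, named after its values were seen, was H2-T22, at -0.40 (SE 0.11, adjusted p = 0.0361) per the authors' deposited table. Of their 50-base words, 24.3% (H2-Q4), 28.8% (H2-T23), 16.1% (H2-Q2) and 43.9% (H2-T22) are shared with other genes, so these values are less certain than that of B2m. The member H2-K1 is among the genes that share most words with each of them. Their values may therefore not be separate from that of H2-K1, and how far they are was not tested.

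The rest of the pathway did not share this pattern of signs. None of 5 genes of peptide loading and the endoplasmic reticulum passed in DESeq2's test, 3 were higher at an unadjusted p under 0.05 (as were 4.42% of all genes), and the median was 0.28. Canx (calnexin), Calr (calreticulin) and Pdia3 (ERp57), chaperones that fold class I along with many other glycoproteins, were at 0.37 (SE 0.12, adjusted p = 0.0833), 0.30 (SE 0.13) and 0.28 (SE 0.10) per the authors' deposited table. Tapbpl, a relative of tapasin, was at -0.27 (SE 0.18), and Erap1, the peptidase that trims peptides in the endoplasmic reticulum, at -0.03 (SE 0.09) per the authors' deposited table. All but Erap1 were named after their values were seen. The 6 tested peptidases of the cytosol had a median of 0.14, with none called and 1 higher at an unadjusted p under 0.05.

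The proteasome outside the 3 immunoproteasome subunits lay close to 0. None of the 3 standard catalytic subunits, 11 other core subunits, 21 subunits of the regulatory cap and 10 activator and assembly genes passed in DESeq2's test, and none did at an unadjusted p under 0.05. Their medians were 0.13, 0.04, 0.04 and 0.01. Psmd3, a subunit of the cap, was at -0.01 (SE 0.07), Psma6, of the core ring, at -0.04 (SE 0.09), and Psme4, an activator, at -0.13 (SE 0.08) per the authors' deposited table. The activator subunits Psme1 and Psme2, which interferon also induces, were at -0.11 (SE 0.10) and -0.06 (SE 0.15) per the authors' deposited table and were named after their values were seen.

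Among 15 regulators of class I transcription, 1 fell and none rose, beside the 1.29% of all genes that were called, with a median of -0.01. Ciita, which drives class II genes and can act on class I promoters, fell by 1.22 (SE 0.31, adjusted p = 0.0109) per the authors' deposited table. Rela, a subunit of NF-kB, was at -0.03 (SE 0.07) per the authors' deposited table. At an unadjusted p under 0.05, 3 of the 15 were lower and 3 higher, against 5.79% and 4.42% of all genes. The 5 of these besides Ciita were named after their values were seen. On the lower side the authors' deposited table has the interferon regulatory factors Irf1 at -0.28 (SE 0.09, adjusted p = 0.0916) and Irf8 at -0.56 (SE 0.19, adjusted p = 0.119). On the higher side the authors' deposited table has Rfx5, an RFX factor of the X box, at 0.30 (SE 0.10, adjusted p = 0.104), Nfya, a subunit of NF-Y, at 0.26 (SE 0.11), and Creb1, a factor that binds cyclic AMP response elements, at 0.19 (SE 0.08). Of 7 genes of interferon-gamma signalling none passed in DESeq2's test, 1 was higher at an unadjusted p under 0.05, and the median was -0.01. For Ifngr2, a chain of the receptor, the authors' deposited table gives 0.02 (SE 0.08), while Ifng, the cytokine, was too imprecise to read at -0.98 (SE 4.08).

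Receptors for class I, listed with some related receptors of lymphocytes and myeloid cells, were imprecise. Of 13 listed, 12 were tested and none passed in DESeq2's test. At an unadjusted p under 0.05, 6 were lower, as were 5.79% of all genes. The median was -1.03 with a median SE of 1.21. Lilrb4a, an inhibitory receptor of myeloid cells, was at -0.74 (SE 0.26, adjusted p = 0.134) per the authors' deposited table.

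**Figure D2:**
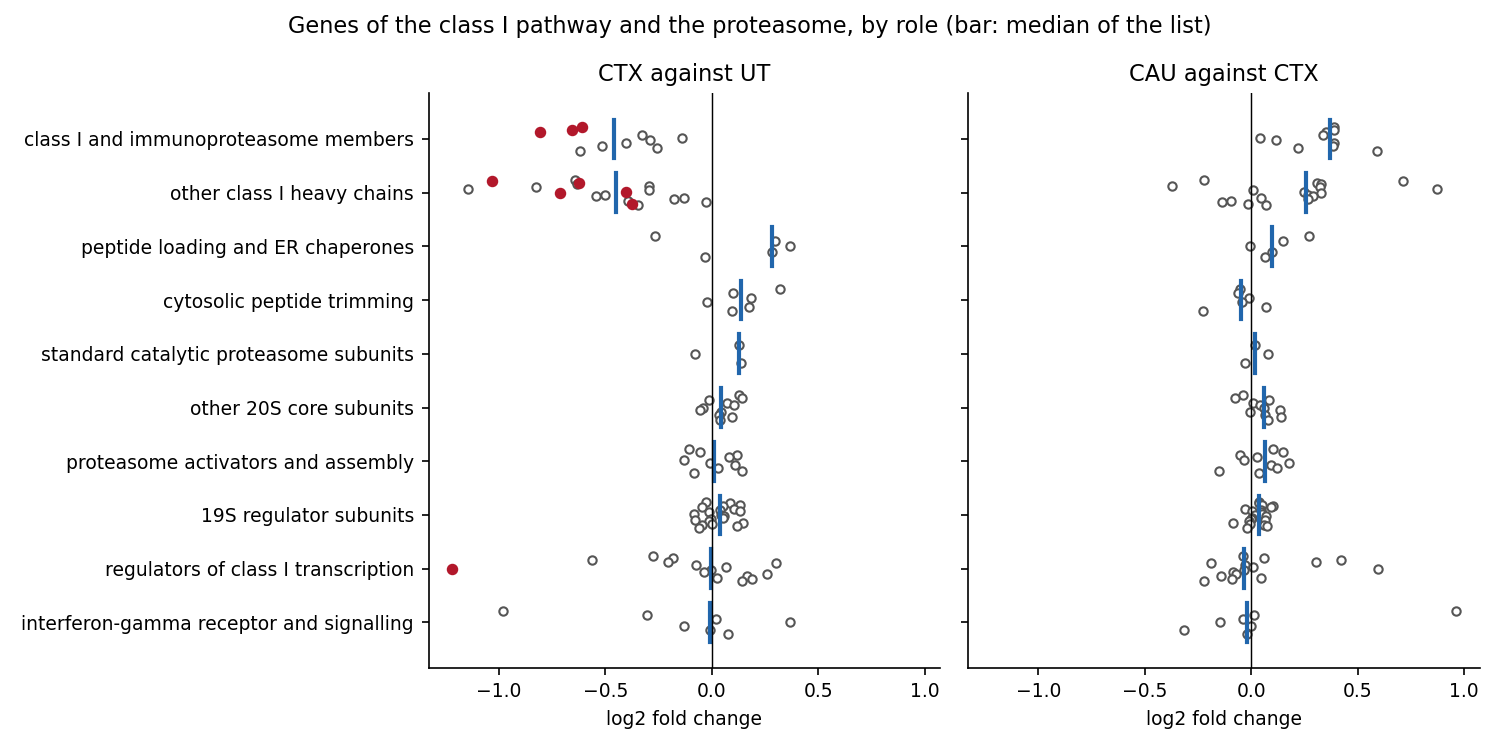
Log2 fold changes (x axis) of the 10 members and of 9 further lists of the class I pathway and the proteasome (rows) in CTX against UT and in CAU against CTX; each point is a gene, filled red where called, and blue bars are list medians. In CTX against UT the members and the other class I heavy chains lie left of 0, with medians of -0.46 and -0.45, and the proteasome lists lie around 0.

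Most neighbours of other kinds in the MHC lay near 0. Between Tapbp and H2-D1, over 1348 kb, 90 genes of the table were found, 7 of them members. Of 73 genes that are neither members nor class II genes, 1 fell, 44 were negative and the median was -0.05. The gene that fell was Aif1, a marker of macrophages and microglia, at -1.46 (SE 0.39, adjusted p = 0.0198) per the authors' deposited table. It was named after its values were seen. The 10 class II genes of the same stretch had a lower median than the 7 members there, a difference that was not tested. Of those 10, 6 fell, with a median of -1.84, against 2 of 7 members and a median of -0.41.

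**Figure D3:**
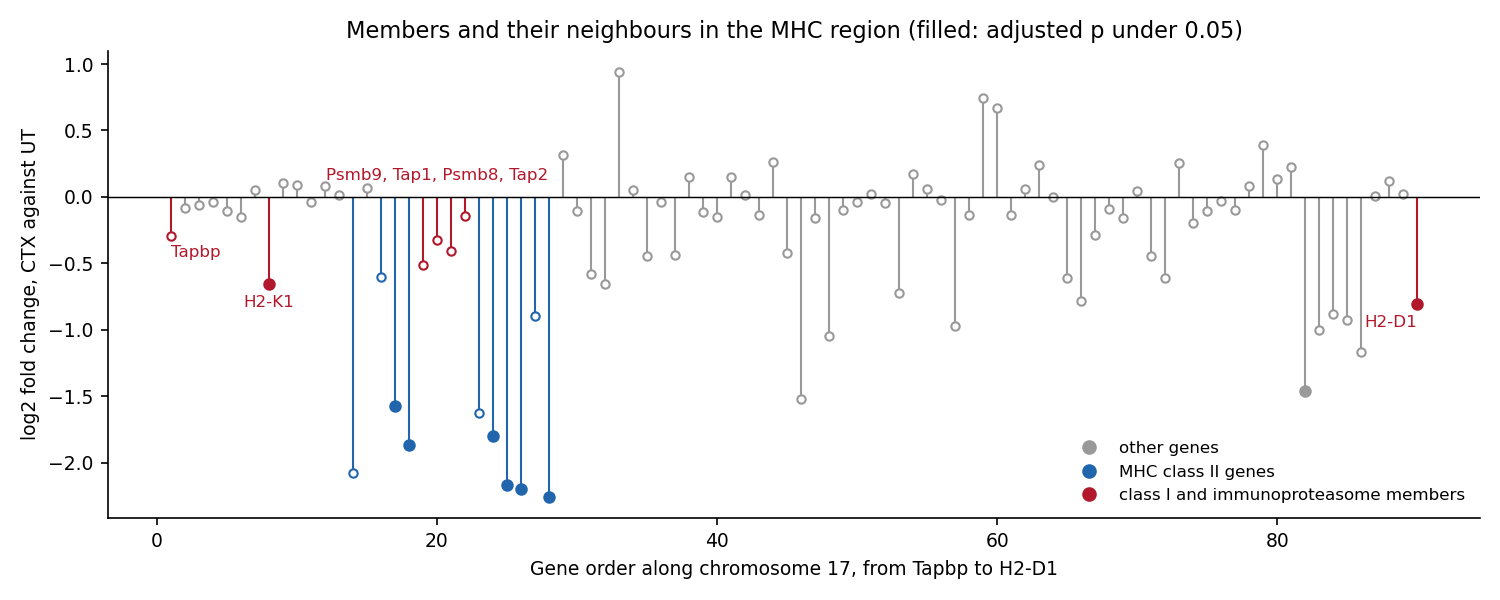
Log2 fold change in CTX against UT (y axis) of 90 genes in their order along chromosome 17 from Tapbp to H2-D1 (x axis); red marks members, blue class II genes, grey other genes, and filled points are called. Class II genes reach the lowest values, members lie between -0.81 and -0.14, and most other genes lie near 0.

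Some markers of white blood cells fell in CTX as well, in 3 of the 6 lists of such cells, and most did not pass. Over all genes tested, 0.820% were called lower. In bulk tissue, fewer cells of a type and less RNA per cell cannot be told apart. Of 7 pan-leukocyte markers all were negative (median -1.14) and 3 fell, among them Coro1a, an actin-binding protein of blood cells, at -1.69 (SE 0.33, adjusted p = 0.000175) and Ptprc (CD45) at -1.46 (SE 0.33, adjusted p = 0.00308) per the authors' deposited table. All 12 macrophage markers were negative (median -0.96) and 5 fell, among them Csf1r, a growth factor receptor of macrophages, at -1.29 (SE 0.18) and C1qb, a subunit of complement C1q, at -0.96 (SE 0.16) per the authors' deposited table. These medians are larger in size than that of the 10 members. The T and NK cell list had 2 of 11 lower (median -2.22, median SE 1.12), with Ncr1, a natural killer cell receptor, at -3.21 (SE 0.70) and Gzma, a granzyme, at -4.13 (SE 1.15) per the authors' deposited table.

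Lists of dendritic cells, B cells and neutrophils had no called gene and medians of -0.73, -0.87 and -0.94. Their median SE was 0.47, 0.80 and 1.10. Among the ovary's own cells, endothelial, oocyte, and theca and stroma lists had none called and medians of -0.04, 0.12 and -0.21. The granulosa list had 1 of 7 higher (median 0.46), which was Inhba, the activin and inhibin beta A chain, at 1.20 (SE 0.32, adjusted p = 0.0186) per the authors' deposited table. The surface and oviduct epithelium list had 1 of 7 lower, Upk3b, a mesothelial marker, with a median of -1.27 (median SE 0.87). The adipocyte list had none called and a median of -1.54 (median SE 0.97). Levels per group are not in the table, so no marker can be placed at or near 0. The part of these lists in the members' result was not tested.

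**Figure D4:**
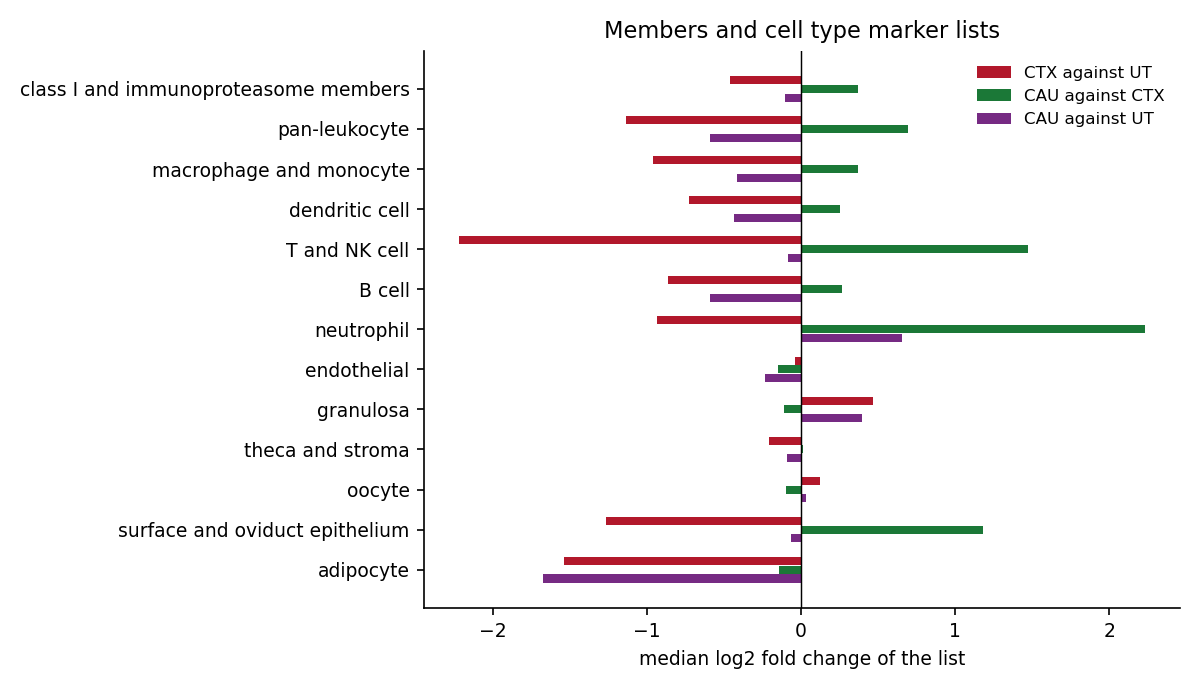
Median log2 fold change (x axis, bars from 0) of the 10 members and of 12 cell type marker lists (rows) in CTX against UT (red), CAU against CTX (green) and CAU against UT (purple). In CTX against UT the pan-leukocyte and macrophage medians are -1.14 and -0.96, and that of the members is -0.46.

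The comparison of CAU with CTX asked whether ovaries of the caulerpin group differed from those of the cyclophosphamide group. All 10 genes had positive log2 fold changes, from 0.04 (Tap2) to 0.59 (Nlrc5), with a median of 0.37, and none passed the threshold in DESeq2's test. Of 19245 genes tested, 0.442% were called, 0.312% were called higher, and the median over all genes was 0.0040. At an unadjusted p under 0.05, 1 of the 10 genes was higher, against 3.32% of all genes. CAU against CTX shares the CTX libraries with CTX against UT, so a low CTX library would enter both with opposite signs.

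H2-K1 was the gene with the unadjusted p under 0.05. It stood at 0.39 (SE 0.20, 95% interval 0.0022 to 0.77, adjusted p = 0.928) per the authors' deposited table. B2m was at 0.39 (SE 0.21, interval -0.02 to 0.80) and H2-D1 at 0.35 (SE 0.23, interval -0.09 to 0.80) per the authors' deposited table. None of these 3 genes passed, and the intervals of B2m and H2-D1 include 0.

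The other members ranged more widely around similar values. Psmb8 and Psmb9 were both at 0.39, with SE of 0.31 and 0.35, and Psmb10 was at 0.22 (SE 0.21) per the authors' deposited table. Tap1 was at 0.34 (SE 0.27), Tapbp at 0.12 (SE 0.13) and Tap2 at 0.04 (SE 0.14) per the authors' deposited table. Nlrc5 was at 0.59 (SE 0.39, interval -0.18 to 1.36), the least precise of the 10 in the authors' deposited table. Of the 10 intervals, 9 included 0, so for these genes no difference between CAU and CTX was detected.

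No gene of the pathway lists was called in CAU against CTX. The other class I heavy chains had a median of 0.26, with 13 positive and 5 negative, and 1 of 18 at an unadjusted p under 0.05, which was H2-T23 at 0.33 (SE 0.17, adjusted p = 0.933) per the authors' deposited table. The 3 standard catalytic subunits had a median of 0.02 and lay between -0.03 and 0.08. In the authors' deposited table Ciita was at 0.60 (SE 0.31, adjusted p = 0.967). Of the 10 class II genes in the MHC stretch 4 were higher, with a median of 1.24, while 0 of the 73 other genes there were called.

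White blood cell lists had positive medians in CAU against CTX, and few of their genes passed. Of 12 macrophage markers 2 were called higher, beside 0.312% of all genes, with a list median of 0.37. Both encode chains of complement C1q: the authors' deposited table has 0.43 (SE 0.11) for C1qc, with adjusted p = 0.0171, and 0.51 (SE 0.12) for C1qb, with adjusted p = 0.00630. The T and NK cell list had 2 of 11 higher (median 1.47), which were Ncr1 at 3.12 (SE 0.70) and Gzma at 4.63 (SE 0.99) per the authors' deposited table. The pan-leukocyte list had none called, 4 of 7 higher at an unadjusted p under 0.05 (as were 3.32% of all genes) and a median of 0.70. Of 6 neutrophil markers none was called, 2 were higher at an unadjusted p under 0.05, and the median was 2.24 (median SE 1.02). Dendritic cell and B cell lists had no gene at an unadjusted p under 0.05, with medians of 0.25 and 0.27 (median SE 0.45 and 0.73). The surface and oviduct epithelium list also had none called, with 7 of 7 positive, 3 higher at an unadjusted p under 0.05 and a median of 1.18. The part of all these lists in the members' values was not tested.

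The comparison of CAU with UT asked how the caulerpin group stood against untreated mice. Of the 10 genes 9 were negative and Tap1 was positive, the median was -0.11, and none passed in DESeq2's test, with 0 at an unadjusted p under 0.05. Of 19302 genes tested, 0.0518% were called and 3.46% had an unadjusted p under 0.05. All 10 intervals included 0. The UT and CAU libraries also serve in the other comparisons, so these values follow from the same samples and add no independent evidence.

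H2-D1 had the lowest value, at -0.45 (SE 0.25, 95% interval -0.95 to 0.05, unadjusted p = 0.0750) per the authors' deposited table. H2-K1 was at -0.26 (SE 0.22), B2m at -0.21 (SE 0.24) and Tapbp at -0.17 (SE 0.15) per the authors' deposited table. Psmb9 was at -0.12 (SE 0.36), Tap2 at -0.09 (SE 0.16), Psmb10 at -0.03 (SE 0.22), Nlrc5 at -0.02 (SE 0.43), Psmb8 at -0.01 (SE 0.33) and Tap1 at 0.02 (SE 0.28) per the authors' deposited table. None of these values passed, and the intervals were as wide as -0.86 to 0.82 for Nlrc5, so that where the CAU group stood between or beside CTX and UT cannot be read for any of the 10.

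The 18 other class I heavy chains had a median of -0.29 in CAU against UT, with 17 negative and none called. Fcgrt was at -0.38 (SE 0.11, adjusted p = 0.258), and in CAU against CTX at -0.01 (SE 0.09), per the authors' deposited table. With z scaled to a robust spread of 1 over all genes, its adjusted p in CAU against UT became 0.000497 and it was called lower. The 5 loading and chaperone genes were all positive, with a median of 0.37 and 3 higher at an unadjusted p under 0.05 (as were 1.20% of all genes), and none was called. Medians of the pan-leukocyte and macrophage lists were -0.59 and -0.42, with none called. At an unadjusted p under 0.05, 2 of 7 and 5 of 12 of their genes were lower, beside 3.46% of all genes in either direction.

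The errors of the 10 genes were larger in both comparisons that the CAU group entered. In CAU against CTX the implied SE of each of the 10 was larger than in CTX against UT, by 1.17 times (Tapbp) to 2.52 times (H2-K1), with a median of 1.82 times. Over 18773 genes with all 3 comparisons the median ratio was 0.950, and 38.7% of genes were above 1. The called heavy chains outside the members are given next, with SE in CTX against UT and then in CAU against CTX. These were 0.08 and 0.21 for H2-Q4, 0.11 and 0.17 for H2-T22, and 0.13 and 0.17 for H2-T23. H2-Q2 had 0.29 and 0.38, and Fcgrt, which alone did not rise, had 0.10 and 0.09. All were named here after their values were seen. In CAU against UT the ratio ran from 1.40 (Tap2) to 2.78 (H2-K1) with a median of 2.00, against 1.11 over all genes, of which 84.2% were above 1. Psmb8 had ratios of 2.45 and 2.60 and Tap1 of 2.41 and 2.55, next to those of H2-K1. The table has no values per library that would show which samples this error comes from, and the ratio was not tested.

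**Figure D5:**
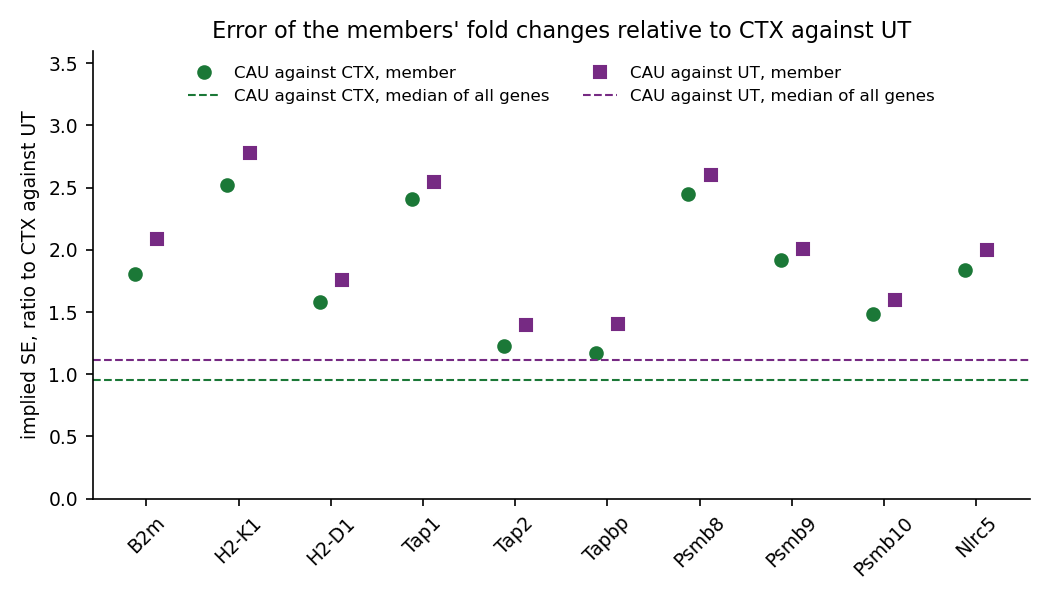
Implied standard error of each of the 10 genes (x axis) in CAU against CTX (green circles) and CAU against UT (purple squares), as a ratio to that in CTX against UT (y axis, from 0); dashed lines are the medians of all genes. Every point lies above 1 and above the dashed line of its colour, at 0.950 and 1.11.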

How the data were processed

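Per the labels' protocols, ovarian RNA was purified on columns and made into libraries with a SMARTer mRNA kit. The authors used GRCm38.p6, DESeq2 1.44.0, RSEM 1.3.1, Bowtie2 and HISAT2, in roles not stated, per the submitters' processing notes. Per the file headers, the authors' deposited table holds 3 values for each gene and comparison, which are a log2 fold change and DESeq2's p-value and q-value (the adjusted p). The sources used here give neither depth, strand setting, read length nor filters.

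From these values the implied SE was computed as the absolute log2 fold change over the absolute z of the 2-sided p-value, as holds for a Wald test without shrinkage, with 95% normal intervals. In 18772 of 18773 genes the 3 columns closed as a sum to within 0.01 of their common offset, so they share 1 direction convention. Genes with blank values (215 to 272 in a comparison) were left out.

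The members and lists were chosen with earlier results of these data known. Named genes were all members, up to 4 called genes of each pathway list and 2 of each marker list, or the gene with the smallest implied SE where none passed. Outside this rule, and chosen after their values were seen, are Cdkn1a, H2-T22, Psmb5, Psmb6 and Ifng. So are H2-T23 and Ciita in CAU against CTX, and others said to be so in the text. Some lists with no called gene, the cytosolic peptidases among them, have no gene named. Planned comparisons of protein sequences were not run, because no protein table was used here. Positions and promoters came from RefSeq (GRCm38.p6; 19459 of 19517 IDs matched a gene) and transcripts from GENCODE M21. Scripts were tested on simulated data and used matplotlib 3.10.9, scipy 1.17.1, pandas 2.3.3, numpy 2.4.6 and Python 3.11.15. Alternatives were other thresholds (adjusted p under 0.10 or 0.01), a recomputed Benjamini-Hochberg adjustment, only genes with an implied SE of at most 1, fold changes centred on the median of all genes, and z scaled to a robust spread of 1.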

Additional observations from a re-analysis of the deposited data

How the results depend on the processing

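B2m, H2-K1 and H2-D1 were called lower in CTX against UT under all 6 alternatives, and at an adjusted p under 0.10 Psmb8 was called too. No member was called in CAU against CTX or CAU against UT under any of them. The lowest adjusted p of a member there was 0.364 and 0.247, with z scaled. The median log2 fold change of the members in CTX against UT was -0.46 as an error-weighted mean, -0.37 without H2-K1 and H2-D1 and -0.44 after centring. In CAU against CTX these were 0.23, 0.36 and 0.37, and in CAU against UT -0.15, -0.06 and -0.10. Under the alternatives, 288 values of single genes were compared, for the members and the called pathway genes only. Of these, 281 kept direction and side of the threshold, 5 lost their call, 2 gained one and none turned. Only centring changed the log2 fold changes, so the other alternatives could not turn a sign. A threshold of 0.10 could not remove a call, and 0.01 could not add one. The gains were Psmb8 in CTX against UT at 0.10 and Fcgrt in CAU against UT with z scaled (adjusted p = 0.000497). H2-T22 lost its call in CTX against UT after centring (adjusted p = 0.0590). The other losses, in the same comparison, were those of H2-Q2, H2-T22, Fcgrt and Ciita at 0.01. Counts over all genes moved more. CTX against UT had 249 calls, 415 at 0.10 and 117 at 0.01. CAU against CTX had 85, 43 at 0.01 and 237 with z scaled, and CAU against UT had 10, and 255 with z scaled. The z values had robust spreads of 1.01, 0.841 and 0.711 in the 3 comparisons.

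No paired analysis was possible because the deposited table has no values per library, which also prevented leaving out each replicate. The precision rests on 3 libraries a group at unknown depth. The labels do not say whether the CAU group also had cyclophosphamide, and the direction of the fold changes rests on the order of group names in the headers.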
